A study of Mus musculus with 8 samples.

Results

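The 7 mouse contactin-associated protein genes, *Cntnap1*, *Cntnap2*, *Cntnap3*, *Cntnap4*, *Cntnap5a*, *Cntnap5b* and *Cntnap5c*, were followed through bulk RNAseq and single nucleus (sn)RNAseq of the adult mouse hippocampus. They were chosen by name, and all 7 were found among the 46517 genes of the bulk tables and among the 24051 genes of the snRNAseq matrices. Mutant mice were *Wls fl/-;Gfap-Cre* and control mice were *Wls fl/+;Gfap-Cre*, so that the *Gfap-Cre* transgene and 1 floxed copy of *Wls* were shared by both genotypes and the other copy was null in mutants and wild type in controls. *Wls* encodes Wntless, the chaperone that Wnt proteins need for secretion, and Cre was driven by the *Gfap* promoter in a subset of neural progenitors, so that in the mutant only recombined cells lose both copies. Each of the 8 samples was both hippocampi of 1 mouse at 12 weeks of age, with 2 mutant and 2 control mice in each assay, and the study's methods give all of them as male. With 2 mice per group an exact permutation test cannot go below p = 0.33, and the p-values given here come from models fitted across all genes.

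Contactin-associated proteins (Casprs) are single-pass membrane proteins of the neurexin superfamily that sit mostly on axons and at synapses. The protein made from *Cntnap1* (Caspr) forms the paranodal junction between axon and myelin together with contactin, which is made from *Cntn1*. The protein made from *Cntnap2* (Caspr2) holds voltage-gated potassium channels at the juxtaparanode together with the contactin made from *Cntn2*, and the gene is among those whose loss is associated with epilepsy, language impairment and autism. *Cntnap4* (Caspr4) is known for its part in the synapses of inhibitory and dopaminergic neurons, whereas the roles of *Cntnap3* (Caspr3) and of the 3 *Cntnap5* genes (Caspr5) are less well understood.

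In the GRCm38 annotation (gencode vM21), *Cntnap2* spans 2245 kb of chromosome 6 (45059357 to 47304213), *Cntnap5a* spans 903 kb of chromosome 1 (115684756 to 116587323) and *Cntnap5b* spans 713 kb of the same chromosome (99772765 to 100485942). *Cntnap5c* spans 641 kb of chromosome 17 (57769570 to 58410355), *Cntnap4* 313 kb of chromosome 8 (112570043 to 112882717) and *Cntnap3* 168 kb of chromosome 13 (64736182 to 64903955). *Cntnap1* is the compact member, with 20.2 kb of chromosome 11 (101170523 to 101190724). All but *Cntnap3* lie on the plus strand. Because nuclei hold much intronic RNA and the snRNAseq index counted it, levels in nuclei are compared below within a gene and not between genes.

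The 3 *Cntnap5* genes are close copies of each other, which bears on whether their reads can be told apart. The longest identical run between transcripts of *Cntnap5a* and *Cntnap5b* is 91 bases and that between *Cntnap5a* and *Cntnap5c* is 86 bases, and the stretch that holds both is shown for the 3 genes. It is coding sequence of exons 10 and 11 of 24 in each gene, 167 bases long and read on the plus strand of GRCm38 (chr1:116188302-116221874, chr1:100164106-100213699 and chr17:58104635-58138645, intron included). Capitals mark bases that differ from *Cntnap5a*.
Cntnap5a: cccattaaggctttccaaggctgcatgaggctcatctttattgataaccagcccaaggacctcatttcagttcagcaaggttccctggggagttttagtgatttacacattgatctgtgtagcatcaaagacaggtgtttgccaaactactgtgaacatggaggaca
Cntnap5b: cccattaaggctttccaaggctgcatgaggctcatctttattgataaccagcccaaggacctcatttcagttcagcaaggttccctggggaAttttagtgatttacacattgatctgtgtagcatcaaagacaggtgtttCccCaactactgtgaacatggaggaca
Cntnap5c: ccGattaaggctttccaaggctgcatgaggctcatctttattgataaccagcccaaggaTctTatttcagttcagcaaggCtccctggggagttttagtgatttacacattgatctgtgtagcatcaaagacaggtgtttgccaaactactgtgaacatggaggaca

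*Cntnap5b* differed from *Cntnap5a* at 3 of these 167 bases and *Cntnap5c* at 4, which is 98.2% and 97.6% identity. Over whole transcripts such runs were rare. Of all stretches of 50 bases, *Cntnap5a* and *Cntnap5b* shared 57, *Cntnap5a* and *Cntnap5c* 54 and *Cntnap5b* and *Cntnap5c* 43, which is 1.09%, 1.39% and 1.11% of the stretches of the shorter set. No other pair of members shared any. A read from this part of a *Cntnap5* transcript could therefore be split between copies, and the counts of the 3 genes carry that limit. The annotation also places the antisense gene *Gm45904* across an exon of *Cntnap4*, and *Plekhh3* across an exon of *Cntnap1* on the other strand.

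In bulk RNAseq, libraries held between 56002381 and 79576196 expected counts. *Wls* itself was at 13.2 and 13.03 CPM (counts of a gene scaled to a fixed library total) in control replicates 1 and 2 and at 3.67 and 6.86 CPM in mutant replicates 1 and 2, lower in both mutants (log2 FC -1.31, adjusted p = 0.117, edgeR). *Xist* was at 518 and 230 CPM in control replicate 2 and mutant replicate 2 against 1.05 and 1.44 CPM in both replicates 1, and the Y-linked *Ddx3y* was at 0.343 and 0.352 CPM in the former against 58.3 and 54.5 CPM in the latter. Replicate 2 of both genotypes thus went against the male sex stated for these mice. In snRNAseq *Xist* was at 1.60 to 3.49 and *Ddx3y* at 31.6 to 53.8 UPM (UMIs scaled to a fixed total as for CPM) in all 4 samples, and *Wls* was at 20.7 and 27.4 UPM in controls and at 6.96 and 11.7 UPM in mutants. Libraries held 5304 to 10460 nuclei, and any pair of libraries shared between 8 and 21 cell barcodes.

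Per transcript length, *Cntnap1* was the most abundant member in the hippocampus, with 130 and 119 TPM in control replicates 1 and 2. *Cntnap2* followed at 45.2 and 48.4 TPM, then *Cntnap4* at 9.25 and 9.34 TPM. The 3 *Cntnap5* genes overlapped each other, at 6.94 and 7.43 TPM for *Cntnap5a*, 6.04 and 7.59 TPM for *Cntnap5b* and 6.0 and 7.47 TPM for *Cntnap5c*. *Cntnap3* was the least abundant member at 1.51 and 1.32 TPM.

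**Figure D1:**
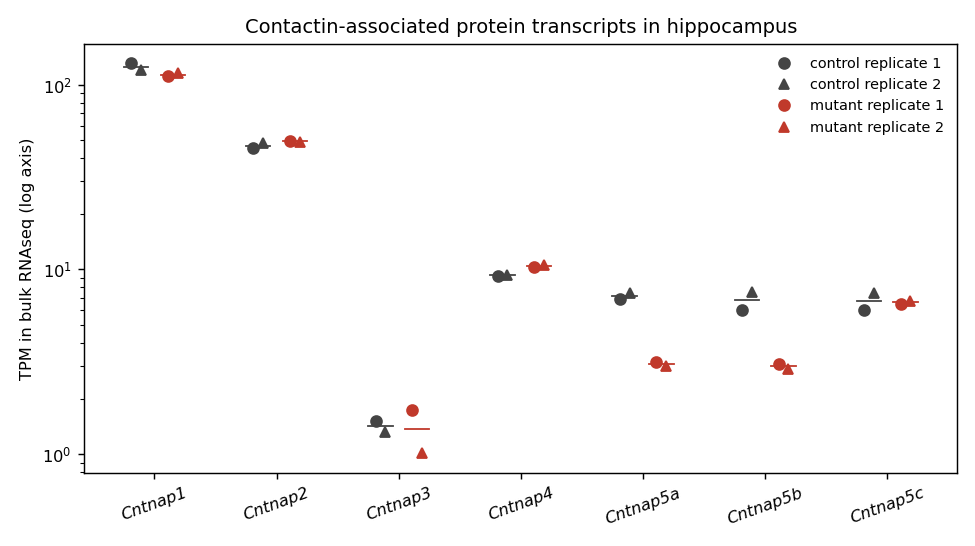
Level of each member in bulk RNAseq, in TPM on a log axis, with 1 symbol per mouse (circles replicate 1, triangles replicate 2) and a line at the mean of each genotype. Mutant *Cntnap5a* (3.16 and 3.02 TPM) and *Cntnap5b* (3.09 and 2.91 TPM) lie below both control samples. The share of all bulk genes that do so was not computed. The other members differ little between genotypes.

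The comparison of genotypes asks which transcripts change when Wnt secretion from these progenitors is lost. *Cntnap5a* fell from 36.0 and 38.3 CPM in control replicates 1 and 2 to 17.8 and 16.1 CPM in mutant replicates 1 and 2. The difference was 2.19-fold (log2 FC -1.13, SE 0.09, adjusted p = 0.0206, edgeR quasi-likelihood test, Benjamini-Hochberg adjusted across 20687 genes). The ratio of mutant to control was 0.494 between the replicates 1 and 0.420 between the replicates 2, the pairs with like *Xist* levels. *Cntnap5b* was at 11.4 and 14.2 CPM in controls and at 6.32 and 5.63 CPM in mutants, a log2 FC of -1.10 (SE 0.16) with an adjusted p of 0.0550, and its within-pair ratios were 0.557 and 0.397.

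The third *Cntnap5* gene went with neither, since *Cntnap5c* was at 11.0 and 13.6 CPM in controls and at 12.98 and 12.8 CPM in mutants (log2 FC 0.06, SE 0.14). *Cntnap2* was at 117 and 132 CPM in controls against 147 and 150 CPM in mutants (log2 FC 0.26, adjusted p = 0.162), and *Cntnap4* at 20.9 and 20.5 CPM against 25.2 and 24.5 CPM (log2 FC 0.27, adjusted p = 0.175). The values of *Cntnap1* were 332 and 304 CPM in controls and 308 and 302 CPM in mutants. *Cntnap3* had a larger spread than difference, at 3.46 and 3.01 CPM in controls and 4.33 and 2.38 CPM in mutants. With the study's threshold of more than 3-fold and an adjusted p below 0.05, 0 of the 7 members were called, against 0.198% of all genes called lower and 0.0193% called higher, and *Cntnap5a* alone passed on the adjusted p at any fold, against 1.01% of genes lower and 0.198% higher. At an unadjusted p below 0.05 there were 4 members (*Cntnap2*, *Cntnap4*, *Cntnap5a* and *Cntnap5b*), against 18.8% of all genes. The median log2 FC of the 7 members was 0.05 and that of all genes 0.01. Over all alternatives the log2 FC was between -1.21 and -1.07 for *Cntnap5a* and between -1.25 and -0.93 for *Cntnap5b*. In DESeq2 the adjusted p was 1.2e-19 for *Cntnap5a* and 1.4e-06 for *Cntnap5b*. In limma on the authors' matrix with a pseudocount of 1 it was 0.0190 and 0.0547. For both genes, some fits with 1 mouse left out did not reach an adjusted p below 0.05.

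The proteins that work with the family were described from lists of 6 contactins, 14 axonal partners and 3 neurexins, of which 0 were called in bulk RNAseq, beside 0.0193% of all genes called higher and 0.198% lower. *Cntn5*, a contactin of specific axon pathways, was at 3.46 and 4.42 CPM in controls and 2.02 and 1.21 CPM in mutants (log2 FC -1.29, adjusted p = 0.123). *Lgi1*, a secreted ligand of Adam22 that is mutated in a form of epilepsy, was at 311 and 292 CPM in controls and 230 and 214 CPM in mutants (log2 FC -0.44, adjusted p = 0.0562). The main partners of Caspr and Caspr2 had small differences, with a log2 FC of 0.09 for *Cntn1* and of 0.28 for *Cntn2*. The median log2 FC was -0.21 over the 6 contactins, -0.06 over the 14 axonal partners and 0.04 over the 3 neurexins. In snRNAseq, 0 of the 241 pairs of a partner gene and a cell type that could be tested were called, beside 0% to 0.827% of all genes called higher and 0% to 0.64% lower by type. Of these pairs, 20 had an unadjusted p below 0.05 (edgeR), beside 3.2% to 16% of all genes by type. DESeq2 called 1 over bulk and snRNAseq together (*Cntn3* in CA2 pyramidal neurons).

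Which cells carry each member was read from the nuclei, grouped by the cell types and clusters deposited by the authors. UMIs were summed per mouse and type and divided by all UMIs of that type, in UPM. Because clusters were built from these counts, the levels are a description with no test between types. The order given is that of the control means, and neighbours are said to overlap where the ranges of the 2 control mice do.

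*Cntnap1* had a flat pattern among neurons, with 31.6 and 38.0 UPM in control mossy cells, 33.2 and 36.0 UPM in CA3 pyramidal neurons, 32.3 and 29.8 UPM in dentate granule cells (DGCs) and 17.2 and 18.1 UPM in CA1 pyramidal neurons. Mossy cells overlapped CA3, and DGCs, inhibitory and excitatory neurons overlapped each other. In oligodendrocytes, which make the myelin that Caspr on the axon faces, *Cntnap1* was at 4.48 and 6.67 UPM.

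Among the deposited types *Cntnap2* was highest in CA1 (3811 and 3223 UPM), inhibitory neurons (3347 and 2731 UPM) and CA3 (3092 and 2500 UPM), 3 types that overlapped as neighbours in that order. Inhibitory cluster 18 stood above them, at 6727 and 5237 UPM. CA2 and the excitatory neurons outside the named fields were lower, at 1317 and 1212 UPM and at 1563 and 943 UPM, and mossy cells had 1049 and 754 UPM. DGCs stood apart as the neurons with the least *Cntnap2*, at 398 and 284 UPM. In glia and microglia it was between 65.1 and 127 UPM. Nearly every CA1 nucleus held a UMI of it, 99.3% and 99.8% in control replicates 1 and 2, against 13.3% and 15.3% of microglia, a type that should lack the gene. Median depth was 8215 and 12164 UMIs in CA1 and 1632 and 2434 UMIs in microglia, and after thinning each nucleus to 1500 UMIs the shares were 95.3% and 94.1% against 12.4% and 11.1%.

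*Cntnap4* and *Cntnap3* were highest, among the types, in inhibitory neurons. *Cntnap4* was at 408 and 427 UPM there, at 240 and 281 UPM in excitatory neurons, and lower at 48.7 and 63.3 UPM in mossy cells and 11.1 and 9.05 UPM in CA1. *Cntnap3* was at 87.5 and 59.2 UPM in inhibitory and 26.1 and 34.9 UPM in excitatory neurons, and at most 11.02 UPM in the controls of the other 9 types. Within the inhibitory type, cluster 12 had the most *Cntnap4* (871 and 908 UPM in controls) and cluster 5 had 377 and 350 UPM. Within the excitatory type it was highest in clusters 13 (759 and 680 UPM) and 8 (463 and 451 UPM), whose nuclei held the markers of deep neocortical layers at a summed 4978 and 4742 UPM and 3638 and 3660 UPM, while clusters 7 and 10 had between 9.54 and 39.4 UPM.

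*Cntnap5a* and *Cntnap5b* were highest, among the deposited types, in DGCs, whose nuclei were fewer in mutants. *Cntnap5a* was at 1120 and 983 UPM in control DGCs, followed by inhibitory neurons at 761 and 681 UPM and CA1 at 478 and 391 UPM, with no overlap between these neighbours. CA3 and CA2 had 77.8 and 71.6 UPM and 35.8 and 60.0 UPM. *Cntnap5b* was at 987 and 758 UPM in DGCs, then in CA2 at 447 and 335 UPM, with CA1 and inhibitory neurons overlapping at 245 to 323 UPM. Mossy cells, the other glutamatergic neurons of the dentate gyrus, had only 17.0 and 14.5 UPM of *Cntnap5b*. *Cntnap5c* had another pattern again, with CA3 first (774 and 538 UPM), then inhibitory neurons (527 and 477 UPM) and CA1 (461 and 283 UPM), and only 52.9 and 70.9 UPM in DGCs. The order of DGCs and CA3 was thus opposite between *Cntnap5c* and the other two.

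**Figure D2:**
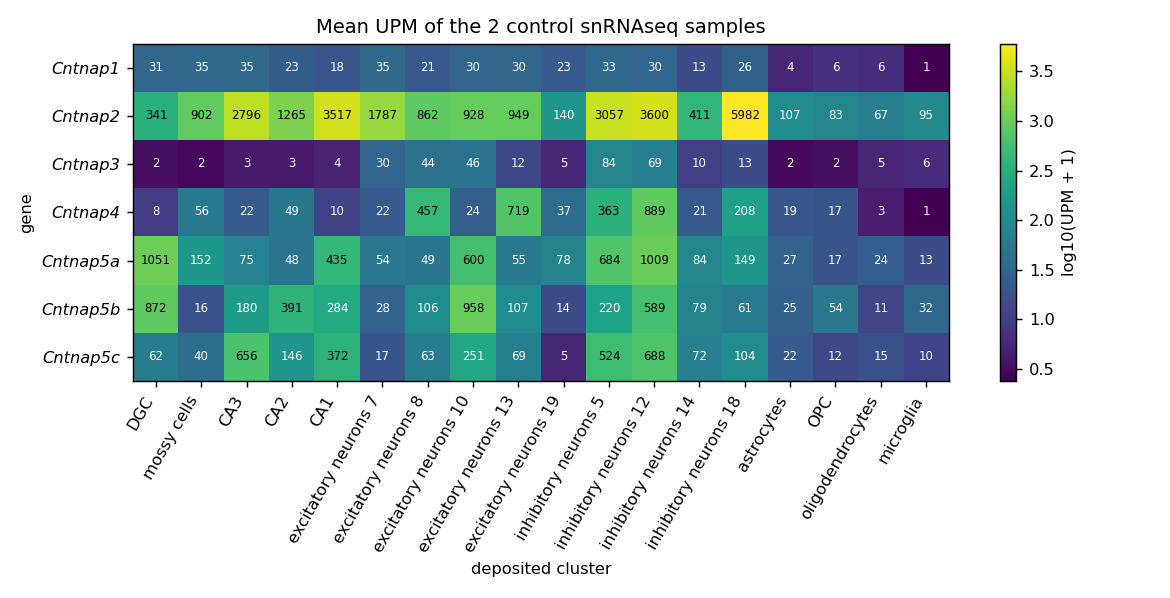
Mean UPM of each member (rows) in the deposited clusters (columns) over the 2 control samples, with colour on the scale log10(UPM + 1) and the mean printed in each cell; clusters with under 10 nuclei in a sample are not shown. *Cntnap5a* and *Cntnap5b* are high in DGCs, excitatory cluster 10 and inhibitory cluster 12, *Cntnap4* in inhibitory cluster 12 and excitatory clusters 13 and 8, and *Cntnap2* in inhibitory cluster 18.

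Over the 17 clusters with at least 20 nuclei in both control mice, the gene whose log2(UPM + 1) followed *Cntnap1* most closely was *Bbs5* (Pearson r 0.965), and that for *Cntnap2* was *4933413L06Rik* (0.941), followed by the neuronal noncoding RNA *Snhg11* (0.938). *Serpini1* was nearest to *Cntnap3* (0.839). *Gm45904*, which overlaps *Cntnap4* on the other strand, was nearest to it (0.914). *March4*, *Pcdh19* and *Col25a1* were nearest to *Cntnap5a* (0.837, 0.832 and 0.812), *Bves* and *Lrrtm4* to *Cntnap5b* (0.816 and 0.799), and *Dnajb4* and *Gria1* to *Cntnap5c* (0.856 and 0.831). Among the members themselves, *Cntnap1* and *Cntnap2* were the closest pair (0.807) and *Cntnap4* and *Cntnap5b* the least close (0.273), with 0.730 to 0.738 between the 3 *Cntnap5* genes. These correlations share the libraries and their depth.

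The origin of each member's UMIs moved with the makeup of the tissue. DGCs supplied 57.6% and 55.5% of all *Cntnap5a* UMIs in control replicates 1 and 2, from 29.2% and 26.4% of all UMIs. In mutant replicates 1 and 2 they supplied 3.90% and 12.2%, from 1.57% and 4.48% of all UMIs, with 90 and 463 DGC nuclei against 2336 and 2007 in controls. For *Cntnap5b* the share from DGCs was 61.9% and 57.5% in controls and 3.27% and 11.98% in mutants. By contrast, DGCs held 5.42% and 4.28% of the *Cntnap2* UMIs and 3.001% and 3.12% of the *Cntnap4* UMIs in controls. Fewer cells of a type and less RNA per cell cannot be told apart in the bulk samples.

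Over all nuclei, *Cntnap5a* was at 568 and 468 UPM in controls and at 553 and 363 UPM in mutants, so that the groups overlapped and the fall seen in bulk RNAseq was not matched in size. *Cntnap5b* was at 465 and 348 UPM in controls and 344 and 243 UPM in mutants. With DGC nuclei left out, *Cntnap5a* was at 340 and 283 UPM in controls and 540 and 333 UPM in mutants, and *Cntnap5b* at 250 and 201 UPM and 339 and 224 UPM. Nuclei of excitatory cluster 10 and inhibitory cluster 15 were rich in *Cntnap5a* and more numerous in mutant samples. With these left out as well, *Cntnap5a* was at 320 and 279 UPM in controls and 397 and 274 UPM in mutants. The groups overlapped, as they did with only DGC nuclei left out. Both clusters were picked from these data, so leaving them out was bound to lower the mutant values. *Cntnap4* over all nuclei was at 76.9 and 74.4 UPM in controls and 167 and 129 UPM in mutants. Without DGC nuclei *Cntnap4* was at 105.4 and 97.9 UPM in controls and 169.5 and 134.5 UPM in mutants. In inhibitory neurons it was at 408 and 427 UPM in controls and 433.7 and 489.6 UPM in mutants. In excitatory neurons it overlapped, at 240 and 281 UPM in controls and 263.9 and 251.96 UPM in mutants. Of 11 types, both mutants were above both controls in 7 and below both in 0. The part of cell makeup in the difference over all nuclei was not tested.

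Within the DGCs that remained, no member was called. *Cntnap5a* was at 1120 and 983 UPM in control DGCs and 1369 and 992 UPM in mutant DGCs, and its ranges overlapped. *Cntnap5b* was at 987 and 758 UPM in controls and 715 and 651 UPM in mutants (log2 FC -0.35), against 0.827% of genes called higher and 0.64% called lower in DGCs. The remaining DGCs are not the same mix as those of controls. Nuclei with UMIs of *Lct* but not *Trhr*, a dorsal pattern, outnumbered the reverse, ventral pattern by 256 to 61 and 352 to 82 in controls, whereas in mutants there were 4 against 18 and 19 against 138. In the *Trhr* nuclei *Cntnap5a* was at 1021 and 912 UPM in controls and at 1769 and 1081 UPM in mutants, and *Cntnap5b* at 990 and 700 UPM in controls and 488 and 570 UPM in mutants, which was 45 and 627 UMIs in the latter. In the *Lct* nuclei of controls the levels were close to those of the *Trhr* nuclei, 1045 and 926 UPM for *Cntnap5a*. In the 4 and 19 *Lct* nuclei of mutants *Cntnap5a* was at 1051 and 453 UPM, from 25 and 68 UMIs. *Cntnap5b* in *Lct* nuclei was at 1128 and 804 UPM in controls and at 589 and 1131 UPM in mutants, from 14 and 170 UMIs in the latter, and overlapped between genotypes.

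**Figure D3:**
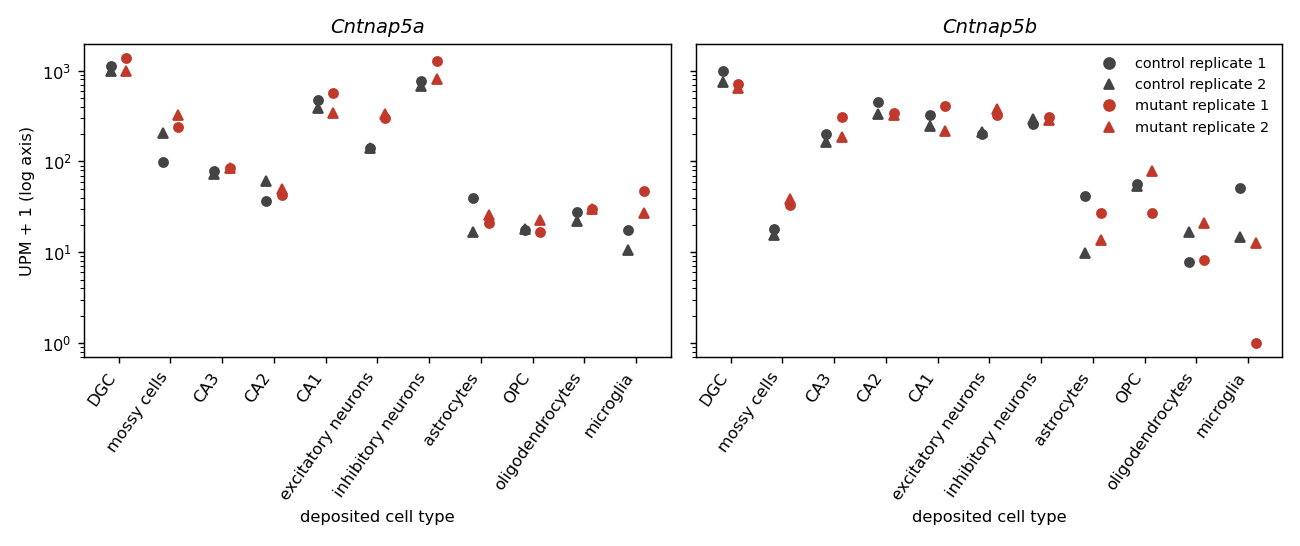
*Cntnap5a* (left) and *Cntnap5b* (right) in each deposited cell type, as UPM + 1 on a log axis, with 1 symbol per mouse. In DGCs, *Cntnap5a* spans 983 to 1369 UPM with the genotypes overlapping, and in excitatory neurons both genes are higher in both mutants than in both controls. The same holds for 20.4% of genes above a floor on counts in excitatory neurons.

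*Cntnap5a* in excitatory neurons outside the named fields is a gene and cell type that the study itself names for a difference between these samples, so that its direction here is not independent evidence. *Cntnap5a* was at 139 and 141 UPM in controls and 298 and 331 UPM in mutants. Both mutants were above both controls, as they were for 20.4% of genes above a floor on counts in that type. The log2 FC was 1.20 (SE 0.16, unadjusted p = 4.5e-05, adjusted p = 0.216 over 14991 genes, edgeR), and 0% of genes in that type were called in either direction, with 10.3% at an unadjusted p below 0.05. *Cntnap5a* was called with DESeq2 (adjusted p = 1.4e-05) and without a filter on low counts (8.3e-04). With 1 mouse left out, the spread within genotypes comes from the other arm alone, so only the size of the difference is given. The log2 FC was then 1.27 and 1.14 without mutant replicate 1 or 2, and 1.21 and 1.16 without control replicate 1 or 2. *Cntnap5b* was at 201 and 207 UPM in controls and 325 and 376 UPM in mutants (log2 FC 0.81, adjusted p = 0.293), and *Cntnap3* at 26.1 and 34.9 UPM in controls and 61.3 and 50.0 UPM in mutants (log2 FC 0.91, adjusted p = 0.321).

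The deposited type is made of 5 clusters in which *Cntnap5a* differs greatly. Cluster 10 held 610 and 590 UPM in controls and 929 and 701 UPM in mutants, and clusters 7, 8 and 13 between 31.7 and 66.6 UPM in controls and between 77.6 and 141 UPM in mutants. Cluster 10 had 74 and 40 nuclei in controls and 286 and 368 nuclei in mutants. It supplied 17.4% and 13.97% of the UMIs of the type in controls and 23.0% and 39.3% in mutants, and 76.1% and 58.4% of its *Cntnap5a* UMIs in controls and 71.6% and 83.3% in mutants. When each sample was given the control makeup of clusters, *Cntnap5a* was at 130 and 150 UPM in controls and 238 and 190 UPM in mutants, a log2 ratio of 0.61 in place of 1.16 for the type as deposited. With all 5 clusters at the same weight the ratio was 0.48 on the log2 scale, with cluster 19 left out of the 5 it was 0.55, and without cluster 10 the fitted log2 FC was 0.92 (adjusted p = 0.468). For *Cntnap5b* the same step took the log2 ratio from 0.78 to 0.25 at the control makeup, and for *Cntnap3* from 0.87 to 0.51. Without cluster 10 the fitted log2 FC of *Cntnap5b* was 1.20 (adjusted p = 0.442), above the 0.81 of the whole type.

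**Figure D4:**
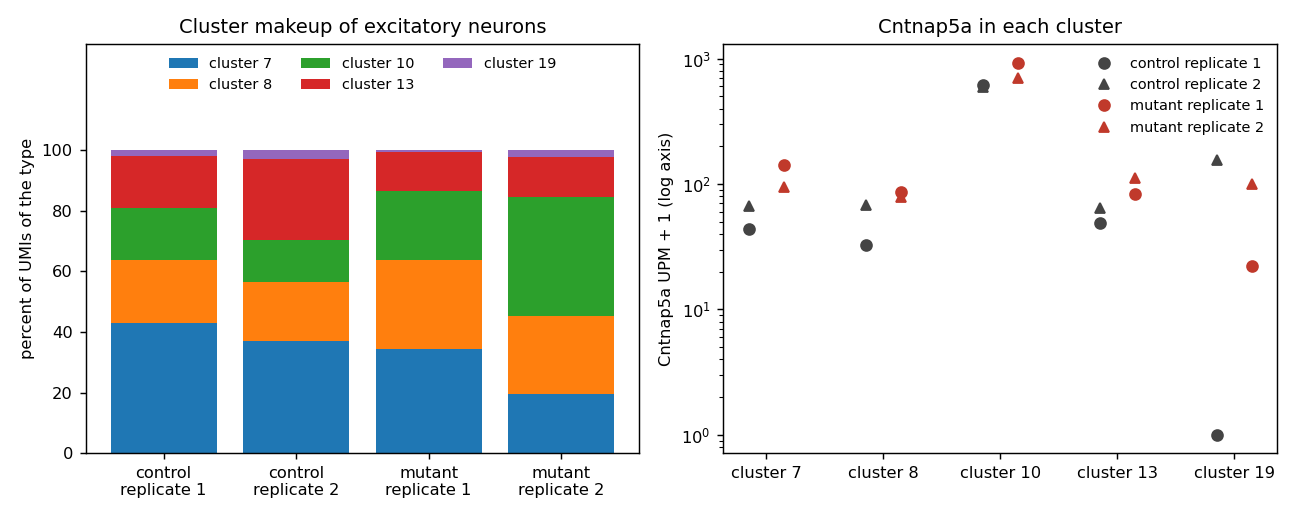
Percent of the UMIs of the deposited excitatory type from each of its 5 clusters in each sample (left) and *Cntnap5a* in each cluster as UPM + 1 on a log axis with 1 symbol per mouse (right). Cluster 10, which has the most *Cntnap5a*, grows from 17.4% and 13.97% of UMIs in controls to 23.0% and 39.3% in mutants. In clusters 7, 8, 10 and 13 both mutants are above both controls. The same holds for 16.3%, 19.9%, 20.6% and 18.6% of genes above a floor on counts in these clusters.

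Cluster by cluster, 0 of 53 pairs of a member and a cluster deposited as neurons were called, against 0% to 0.0482% of genes called higher and 0% to 0.042% called lower, and 12 had an unadjusted p below 0.05. The share of all genes with such a p was 5.24%, 9.04%, 8.72%, 7.2% and 7.81% in excitatory clusters 7, 8, 10, 13 and 19, and 11%, 8.81%, 5.59% and 5.81% in inhibitory clusters 5, 12, 14 and 18. *Cntnap5a* had a log2 FC of 0.49 (SE 0.23) in cluster 10, which supplies most of its UMIs in the type, and of 1.17 (SE 0.29) in cluster 7, 0.79 (SE 0.29) in cluster 8 and 0.82 (SE 0.25) in cluster 13, with adjusted p between 0.415 and 0.909 (edgeR). *Cntnap5b* in cluster 10, which supplied 63.8% to 77.3% of its UMIs in the type, overlapped between genotypes at 892 and 1025 UPM in controls and 903 and 739 UPM in mutants (log2 FC -0.18). *Cntnap5b* in cluster 13 was at 118 and 95.8 UPM in controls and 233 and 192 UPM in mutants (log2 FC 1.03, adjusted p = 0.261). DESeq2 called none of these pairs either. Excitatory cluster 19 and inhibitory cluster 14 had more of the meninges markers than of the markers of their labels in every sample. The 4 meninges markers summed to 273 to 778 UPM in cluster 19 and 1125 to 1857 UPM in cluster 14, against 0 to 109 UPM of the 3 excitatory markers in the former and 264 to 361 UPM of the 3 inhibitory markers in the latter, and median depth was 1864 to 3922 UMIs. Of the 53 pairs, 1 was from cluster 19 and 5 from cluster 14. In cluster 19 *Cntnap5a* was at 0 and 17 UMIs in controls and 1 and 20 UMIs in mutants and was not tested.

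One small cluster held more *Cntnap5a* than any other. The cluster deposited as inhibitory neurons 15 was at 2976 and 2057 UPM in controls, from 15 nuclei and 1 nucleus, and at 3995 and 3501 UPM in mutants, from 143 and 102 nuclei. It did not have the markers of its label, with *Gad1* at 0 to 9.32 UPM and *Gad2* at 0 to 6.99 UPM, while *Slc17a7*, which marks glutamatergic neurons, was at 130 to 217 UPM. It supplied 21.5% and 10.8% of all *Cntnap5a* UMIs in mutants and 1.84% and 0.13% in controls. In inhibitory neurons as deposited *Cntnap5a* was at 761 and 681 UPM in controls and 1279 and 811 UPM in mutants (log2 FC 0.57, adjusted p = 0.37), whereas in cluster 5, the main inhibitory cluster, it was at 681 and 687 UPM in controls and 785 and 565 UPM in mutants, with overlap.

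Mossy cells gave the 1 call among the members by cell type, of 65 pairs that passed the filter on low counts of 77. *Cntnap4* rose from 48.7 and 63.3 UPM in controls to 172 and 166 UPM in mutants, with both mutants above both controls (3.02-fold, log2 FC 1.59, SE 0.29, adjusted p = 0.0270, edgeR over 7289 genes). In that type 0.439% of genes were called higher and 0.151% lower, with 10.7% at an unadjusted p below 0.05. Both mutants lay above both controls for 18.4% of its genes above a floor on counts. The values rest on 20 and 35 UMIs in 38 and 32 control nuclei and on 32 and 155 UMIs in 27 and 89 mutant nuclei. After thinning to 1500 UMIs, 2.63% and 9.38% of control and 22.2% and 19.1% of mutant nuclei held a UMI of *Cntnap4*, at median depths before thinning of 10392 and 16644 UMIs in controls and 5560 and 9598 UMIs in mutants, against 34.2%, 40.6%, 59.3% and 73.0% unthinned. In control microglia 0% and 0.35% held one after thinning. The call was not made with DESeq2 (adjusted p = 0.215) and was lost in some fits with 1 mouse left out. The log2 FC was 1.58 and 1.63 without mutant replicate 1 or 2, and 1.44 and 1.79 without control replicate 1 or 2.

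Other transcripts moved with it in mossy cells, and their part in the result was not tested. The 3 mossy cell markers *Calb2*, *Drd2* and *Ajap1* summed to 358 and 403 UPM in controls and 230 and 344 UPM in mutants. *Ajap1* was at 331 and 289 UPM against 139 and 213 UPM. The rest of this sum, from *Calb2* and *Drd2*, did not fall. The 3 oligodendrocyte markers summed to 58.4 and 61.5 UPM in controls and 177 and 216 UPM in mutants. The 4 subiculum markers summed to 94.9 and 34.4 UPM in controls and 241 and 147 UPM in mutants, the 3 markers of upper neocortical layers to 31.6 and 57.9 UPM and 129 and 124 UPM. The 3 inhibitory markers, whose type has the most *Cntnap4*, summed to 9.74 and 30.7 UPM in controls and 42.9 and 29.0 UPM in mutants. *Gad1* was at 4.87 and 10.8 UPM against 5.36 and 5.36 UPM, and the rest of this sum was higher in mutants. The markers of deep neocortical layers went the other way or overlapped, at 1008 and 506 UPM in controls and 520 and 327 UPM in mutants.

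The 3 *Cntnap5* genes were not called in mossy cells. Both mutants lay above both controls for each, as they did for 18.4% of genes above a floor on counts in that type. *Cntnap5a* was at 97.4 and 206 UPM in controls and 241 and 326 UPM in mutants (adjusted p = 0.244). *Cntnap5b* was at 17.0 and 14.5 UPM in controls and 32.2 and 37.5 UPM in mutants (0.351), which rests on 7 and 8 UMIs in controls. *Cntnap5c* was at 34.1 and 45.2 UPM in controls and 80.4 and 75.1 UPM in mutants (0.287). *Cntnap2* overlapped between genotypes, at 754 to 1147 UPM, and *Cntnap1* was at 31.6 and 38.0 UPM in controls and 5.36 and 26.8 UPM in mutants.

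**Figure D5:**
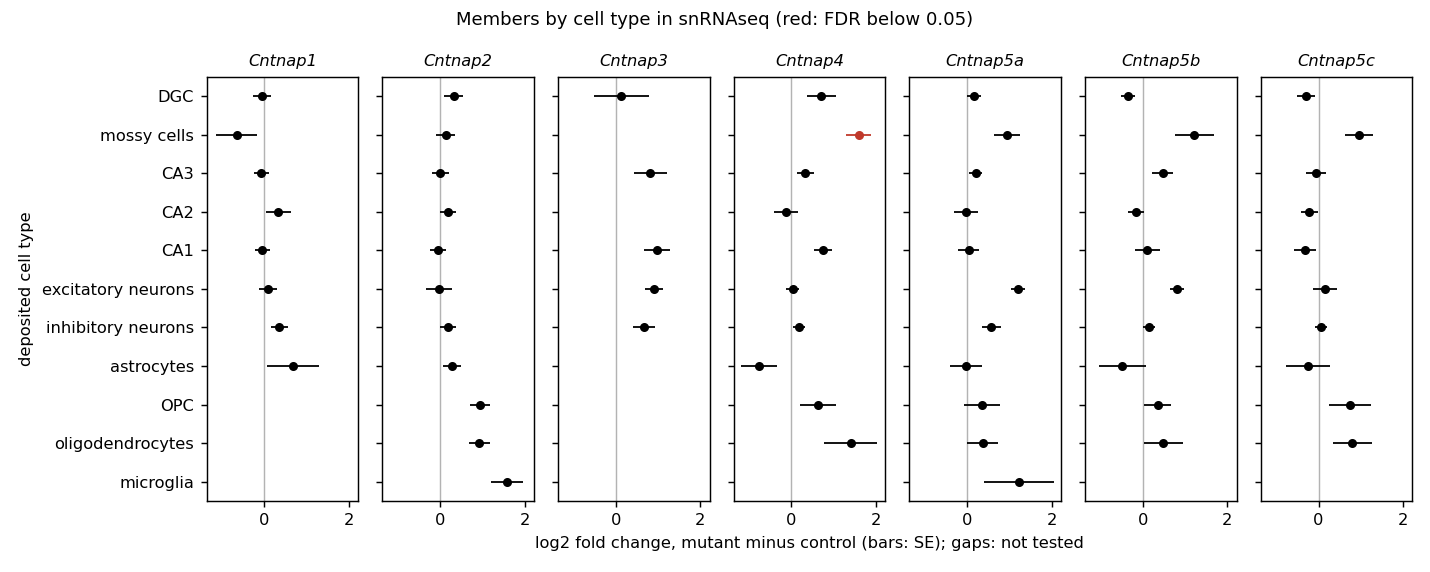
Log2 fold change of mutant against control for each member (panels) in each deposited cell type (rows) of snRNAseq, with bars of 1 SE, the edgeR fit of 2 against 2 mice and no point where a gene did not pass the filter on low counts. *Cntnap4* in mossy cells (1.59) is the 1 value with an adjusted p below 0.05.

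In the other types no member was called. Genes called higher and lower were 0.827% and 0.64% in DGCs, 0.00643% and 0.0129% in inhibitory neurons, 0.00992% and 0% in CA2, 0.0421% and 0.014% in microglia, 0.131% and 0.253% in astrocytes, 0.011% and 0.121% in OPCs, 0% and 0.0892% in oligodendrocytes, and 0% in either direction in CA1, CA3 and excitatory neurons. Over the 65 pairs, 47 fitted values were higher in mutants and 18 lower, beside 46.1% to 51.8% higher over all genes of a type. The partner genes leaned the same way, with 176 of 241 pairs higher and 65 lower, so the lean was not particular to the members. Of the 65 pairs, 15 had an unadjusted p below 0.05, beside 3.2% of genes in microglia, 6.5% in oligodendrocytes, 8.45% in OPCs, 9.1% in CA2, 10% in CA1, 10.3% in excitatory neurons, 10.6% in astrocytes, 12.1% in inhibitory neurons, 12.5% in CA3 and 16% in DGCs. *Cntnap2* in microglia was at 105 and 84.65 UPM in controls and 836 and 195 UPM in mutants (log2 FC 1.59, adjusted p = 0.0832), where the first mutant value is 18 UMIs in 13 nuclei. *Cntnap2* in OPCs was at 96.4 and 69.4 UPM in controls and 111 and 166 UPM in mutants (log2 FC 0.95, adjusted p = 0.208) and in oligodendrocytes at 69.5 and 65.1 UPM and 115 and 128 UPM (log2 FC 0.93, adjusted p = 0.247). *Cntnap4* in CA1 was at 11.1 and 9.05 UPM in controls and 17.4 and 16.8 UPM in mutants (log2 FC 0.75, adjusted p = 0.421). In CA2 and CA3 no member had an unadjusted p below 0.05, with *Cntnap5a* at 35.8 and 60.0 UPM against 42.0 and 48.7 UPM in CA2 and 77.8 and 71.6 UPM against 84.7 and 83.6 UPM in CA3.

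Whether the genotype effect on *Cntnap5a* was larger in excitatory neurons than elsewhere was tested as a difference of effects with the mouse as a block, against each of 10 other types. The log2 FC was higher in excitatory neurons by 1.06 than in DGCs (SE 0.17, adjusted p = 0.00157 over all genes of the fit, edgeR) and by 1.02 than in CA3 (SE 0.13, adjusted p = 0.00647). Against CA2 it was higher by 1.27 (adjusted p = 0.0570), against astrocytes by 1.22 (0.0590) and against CA1 by 1.19 (0.191), and against inhibitory neurons the difference was 0.65 (0.506). It was 0.87 against both OPCs (0.922) and oligodendrocytes (1), 0.28 against mossy cells (0.863) and -0.02 against microglia (1), so that no larger effect than in mossy cells or microglia was shown. For *Cntnap5b* the effect in excitatory neurons was higher by 1.16 than in DGCs (adjusted p = 4.4e-04) and by 1.01 than in CA2 (0.0467). These differences hold the cluster makeup of the excitatory type as deposited, and the share of all genes that passed in these fits was not computed. *Cntnap4* differed the other way, with an effect in excitatory neurons 1.56 lower on the log2 scale than in mossy cells (log2 difference -1.56, SE 0.27, adjusted p = 2.8e-06).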

How the data were processed

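Genotype and replicate of the bulk RNAseq and snRNAseq samples came from their labels. The authors ran RSEM 1.3.0 with Bowtie2 2.2.9 on mm10 for bulk RNAseq and deposited the expected count and TPM of each gene, plus a matrix of signal, in which each library's expected counts carry a single size factor. The authors used Cell Ranger 3.1.0 with an mm10 index that includes introns for snRNAseq and deposited a matrix of UMI counts, genes by nuclei, with cell types and clusters from Monocle 3 after batch correction. How the authors treated doublets is not given in the sources used here, and no doublet caller was run.

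Expected counts were rounded, and UMIs were summed per mouse and cell type or cluster with at least 10 nuclei in every sample (11 types and 9 neuronal clusters). Both were compared with edgeR's quasi-likelihood test (edgeR 4.0.16, R 4.3.3) after filterByExpr and TMM scaling, with Benjamini-Hochberg adjustment over all genes of a fit. Calls needed FC above 3 in bulk RNAseq and above 2 in snRNAseq, with FDR below 0.05, the study's thresholds. EBSeq and the Monocle 3 regression, which the authors used, were not run. CPM are TMM-scaled, and UPM are relative to all UMIs of the sample and type. A p from 2 mice per group sets the difference against a spread estimated from these mice and moderated over all genes. SEs are the size of the log2 FC over the root of the F statistic. The tests were run on simulated data in which 200 genes were changed. Every gene was drawn with 1 common dispersion, whereas real genes differ in spread. The shares and false calls below hold for that setting and do not carry over to the real data. At 2-fold, 43.5% were recovered in bulk RNAseq over 20687 genes, 30% in excitatory neurons over 14943 genes and 29% in DGCs over 15028 genes. At 4-fold these shares were 94.5% over 20674 genes, 95.5% over 14909 genes and 83.5% over 15059 genes. False calls were 1, 2 and 1 at 2-fold and 10, 9 and 9 at 4-fold. A 2-fold change lies below the FC of 3 that calls needed in bulk RNAseq. Recovery at the fold thresholds of the calls was not tested.

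The members and the lists of partner genes and markers were chosen with earlier results of these data known. The genes named are the members, those lists, the 3 genes most alike each member (the text gives the first 1 to 3), *Wls*, *Lct*, *Trhr*, *Xist* and *Ddx3y*. *Epb41l2* and *Epb41l3* carry older symbols in the bulk files and were matched by gene ID. *Gm45904* and *Plekhh3* were named for their position. Alternatives were DESeq2 1.42.0, RLE scaling, no scaling, no filter, the authors' matrix in limma 3.58.1, each mouse left out, the replicate number as a block and selections of nuclei or clusters. Same-numbered mice were not stated to share a litter or day and gave only 1 correlation per comparison (0.02 in bulk RNAseq, 0.04 to 0.36 in cell types), so the block was not used in the tests reported. Sequences and positions are from gencode vM21 on GRCm38, the same assembly as mm10. Protein sequences were not used here. Libraries of snRNAseq held 26307081 to 76486132 UMIs. Outliers cannot be tested in groups of 2.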

Additional observations from a re-analysis of the deposited data

Results flagged for a closer look

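The genotype effect on 3 members differed between cell types by a test of the difference itself, with the mouse as a block and p adjusted over all genes of each fit. The share of all genes that passed in these fits was not computed, so this count is not a result particular to the members. *Cntnap5a* had a log2 fold change in excitatory neurons that was higher by 1.06 than in DGCs and by 1.02 than in CA3 pyramidal neurons, and *Cntnap5b* one that was higher by 1.16 than in DGCs and by 1.01 than in CA2 pyramidal neurons. For *Cntnap4* the value in excitatory neurons minus that in mossy cells was -1.56. Over RLE scaling and each mouse left out, the difference of *Cntnap5a* ranged from 0.90 to 1.08 against CA3 and from 0.78 to 1.32 against DGCs. The differences of *Cntnap5a* and *Cntnap5b* did not all keep an adjusted p below 0.05 with 1 mouse left out. The share of UMIs of the excitatory type from cluster 10 was 17.4% and 13.97% in controls and 23.0% and 39.3% in mutants, and its part in the differences was not tested within these fits.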

How the results depend on the processing

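With 2 mice per group and a single pair of numbers, calls depended on settings more than directions did. The count of the 7 members called in bulk RNAseq was 0 and became 1 at any fold (*Cntnap5a*). The count of 1 pair by cell type became 2 with RLE scaling, without scaling and without the filter on low counts, 3 with the replicate block, and 2 without any 1 mouse. The added pairs by type were *Cntnap2* in microglia (RLE scaling, no scaling and the block), *Cntnap2* in OPCs (without control replicate 1 or mutant replicate 1), *Cntnap5a* in mossy cells (without control replicate 2), *Cntnap3* in excitatory neurons (without mutant replicate 2) and *Cntnap5a* there, which was the 1 pair that DESeq2 called. The 0 pairs by cluster became 4 without the filter and 1 with the replicate block, and ranged from 0 to 3 without 1 mouse. The 0 pairs of partner genes, over bulk RNAseq and cell types, became 1 with DESeq2 and 2 without the filter and with the replicate block, and ranged from 1 to 2 without 1 mouse. *Cntnap5a* in excitatory neurons (log2 FC 1.20) was called at 1.18 with DESeq2, 1.19 without the filter and 1.20 with the replicate block (adjusted p = 8.0e-05), ranged from 1.14 to 1.27 without 1 mouse, and was 0.48 with each cluster at the same weight and 0.55 with cluster 19 left out of these, a choice made after seeing the data. A fit without 1 mouse takes the spread from the other arm and assumes that the lone mouse varies like it. The number of types it differed from was 2 and ranged from 1 to 5 without 1 mouse. The cause of these changes was not tested.

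The directions that reversed were those of 6 small values. *Cntnap3* in bulk RNAseq (log2 FC 0.05) was -0.0051 with the replicate block, -0.0095 and -0.0098 in limma with a pseudocount of 1 and 0.1, and between -0.44 and 0.42 without 1 mouse. Without 1 mouse, *Cntnap1* in bulk RNAseq ranged from -0.12 to 0.0049 (the latter without control replicate 1), *Cntnap5c* from -0.085 (likewise) to 0.23 and *Cntnap5a* in DGCs from -0.074 (without mutant replicate 1) to 0.34. The difference of *Cntnap5a* between excitatory neurons and microglia was 0.054 with RLE scaling and ranged from -0.20 to 0.29 without 1 mouse, and that to mossy cells from -0.42 to 0.69. No nucleus had fewer than 1000 UMIs, so a minimum of 2000 was added after seeing the data, and it could not be fitted in microglia, where it left a mouse with no nucleus. Adjusted p under the replicate block was 0.0469 for *Cntnap5a* and 0.0957 for *Cntnap5b* in bulk RNAseq and 5.45e-06 for *Cntnap4* in mossy cells. A depth of 20 to 35 UMIs of *Cntnap4* in control mossy cells limits that value.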
